A study of Mus musculus with 24 samples.

Results

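The mRNA of 10 genes was followed across mouse embryonic stem cells (mESCs) labelled as wild type or as deleted for 1 accessory subunit of an ISWI chromatin remodelling complex. The genes were 6 known targets of the coactivator YAP (Ccn1, Ccn2, Ankrd1, Amotl2, Axl and Thbs1) and 4 contractile genes that are known targets of the transcription factor SRF (Tagln, Acta2, Acta1 and Cnn1). They were selected on values of these same libraries, so their levels and fold changes are given as a description without p-values. All 10 were found by Entrez gene ID among the 24594 genes of the counts table, and all 10 were among the 15682 genes tested.

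RNA was sequenced from 24 libraries in 5 batches, A to E, and each batch held its own wild-type (WT) libraries, 11 in all. Batch A held 2 WT, 2 Rsf1Δ and 2 WstfΔ libraries, so both of these lines were compared with the same WT libraries. Batch B held 2 WT and 2 Tip5Δ libraries, batch C 2 WT and 2 BptfΔ, batch D 3 WT and 3 labelled Cecr2Δ, and batch E 2 WT and 2 Acf1Δ. WSTF is encoded by Baz1b, TIP5 by Baz2a and ACF1 by Baz1a. All cells were of 129S6/SvEvTac background, were grown on gelatin with serum and LIF, and were WT or carried a CRISPR-Cas9 deletion (Acf1 was targeted in 2 rounds). The study kept 1 clone for each genotype, so a deletion and its clone cannot be told apart. The study calls its libraries independent, biological replicates, the labels do not say how they were separated, and p-values measure the spread between these libraries.

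Total counts were between 13.4 and 36.7 M per library, with a median of 25.0 M, so that 3 counts equalled between 0.0837 and 0.22 normalized CPM (counts scaled to a common library size). The mRNA of the deleted gene was lower in Rsf1Δ, WstfΔ, Acf1Δ and BptfΔ, with log2 fold changes between -1.72 and -2.40. It differed little in Tip5Δ (-0.26), and Cecr2 mRNA was higher in the Cecr2Δ-labelled libraries (0.37), so these checks say nothing of the deleted part in either line. According to its methods the study checked its clones by DNA sequencing and western blot, which were not analysed here. It reported that western blots detected none of the deleted proteins in their lines. The libraries of batch C stood apart in that they held Rpph1, an RNA without a poly(A) tail, at 3290 to 4820 CPM, against at most 3.39 CPM elsewhere. The 6 pluripotency markers, among them Pou5f1, were called lower in none of the lines. Klf4 was called higher in WstfΔ (log2 fold change 1.3) and BptfΔ (1.14) and Esrrb in BptfΔ (1.19), and the sum of the 6 was above every WT library of the batch in all lines but Tip5Δ, where it overlapped WT (3020 to 3120 CPM against 3090). It was 2530 to 2620 CPM in WT of batch A, 3460 to 3470 in Rsf1Δ and 3760 to 3810 in WstfΔ, 3900 in BptfΔ against 2610 to 2680, 3890 to 4120 in the Cecr2Δ-labelled libraries against 3440 to 3710, and 3760 to 3910 in Acf1Δ against 3180 to 3390.

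YAP and its relative TAZ are coactivators of the Hippo pathway. When the kinases LATS1 and LATS2 are inactive they enter the nucleus, bind TEAD transcription factors and switch on genes such as Ccn1 and Ccn2, which encode secreted matrix proteins. SRF binds a DNA element called the CArG box, and its partners MRTF-A and MRTF-B are held in the cytoplasm by monomeric actin, so that actin assembly and contractile tension raise genes of the contractile apparatus. Both branches respond to adhesion and tension, and are active in fibroblasts and smooth muscle.

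Promoter sequences were taken from RefSeq for the 7 members in the promoter table, in windows from 250 bases before to 50 after the gene start, on GRCm38.p6. Ccn2, Thbs1 and Tagln had no entry. The motif GGAATG (or CATTCC on the other strand), the core of TEAD binding sites, was found in 6 of the 7 windows (Ccn1, Ankrd1, Amotl2, Axl, Acta2 and Acta1) and in 14.7% of all 32851 promoters. The CArG box was found in full in Acta1 only (1.63% of all promoters), and with at most 1 mismatch in Acta1 and Acta2 (9.98%). No motifs overlapped each other, and a match is a description of letters, not a binding site. The 250 bases before the start are printed for 3 members, 2 of the YAP group and 1 of the contractile group, because these windows lie outside the annotated gene. Capitals mark TEAD motifs and CArG boxes with at most 1 mismatch.
Ccn1 (chr3:145649986-145650235, minus strand): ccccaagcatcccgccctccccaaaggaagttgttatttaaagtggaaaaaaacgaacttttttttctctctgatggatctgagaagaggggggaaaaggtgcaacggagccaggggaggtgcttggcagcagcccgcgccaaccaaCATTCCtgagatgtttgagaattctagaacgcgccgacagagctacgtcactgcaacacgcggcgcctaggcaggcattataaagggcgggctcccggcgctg
Ankrd1 (chr19:36119845-36120094, minus strand): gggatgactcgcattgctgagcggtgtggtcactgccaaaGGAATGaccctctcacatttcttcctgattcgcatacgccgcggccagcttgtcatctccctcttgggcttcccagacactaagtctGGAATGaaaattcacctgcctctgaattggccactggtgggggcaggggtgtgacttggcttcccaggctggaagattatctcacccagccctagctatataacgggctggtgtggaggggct
Acta1 (chr8:123894776-123895025, minus strand): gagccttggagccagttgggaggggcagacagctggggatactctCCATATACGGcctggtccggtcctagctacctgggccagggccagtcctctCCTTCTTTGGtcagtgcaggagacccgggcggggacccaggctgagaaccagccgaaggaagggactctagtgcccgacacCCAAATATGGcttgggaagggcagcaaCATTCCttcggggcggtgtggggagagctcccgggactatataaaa

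Ankrd1 held 2 TEAD motifs on the gene's strand, starting 210 and 123 bases before the gene start, and Ccn1 held 1 on the other strand, starting 103 bases before it. Acta1 held the full CArG box 73 bases before the start and a TEAD motif 46 bases before it. For members whose window reaches into the annotated gene, only the sites are printed, as 30 bases around each. These are the TEAD motifs of Amotl2 and Axl and both CArG-like sites of Acta2, to be read beside those of Ccn1 and Acta1.
Amotl2 (chr9:102717727-102717756, plus strand): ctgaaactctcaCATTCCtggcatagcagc
Axl (chr7:25788949-25788978, minus strand): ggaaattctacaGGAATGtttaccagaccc
Acta2 (chr19:34255438-34255467, minus strand): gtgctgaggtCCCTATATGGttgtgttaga
Acta2 (chr19:34255388-34255417, minus strand): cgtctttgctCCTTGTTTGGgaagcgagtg

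**Figure D1:**
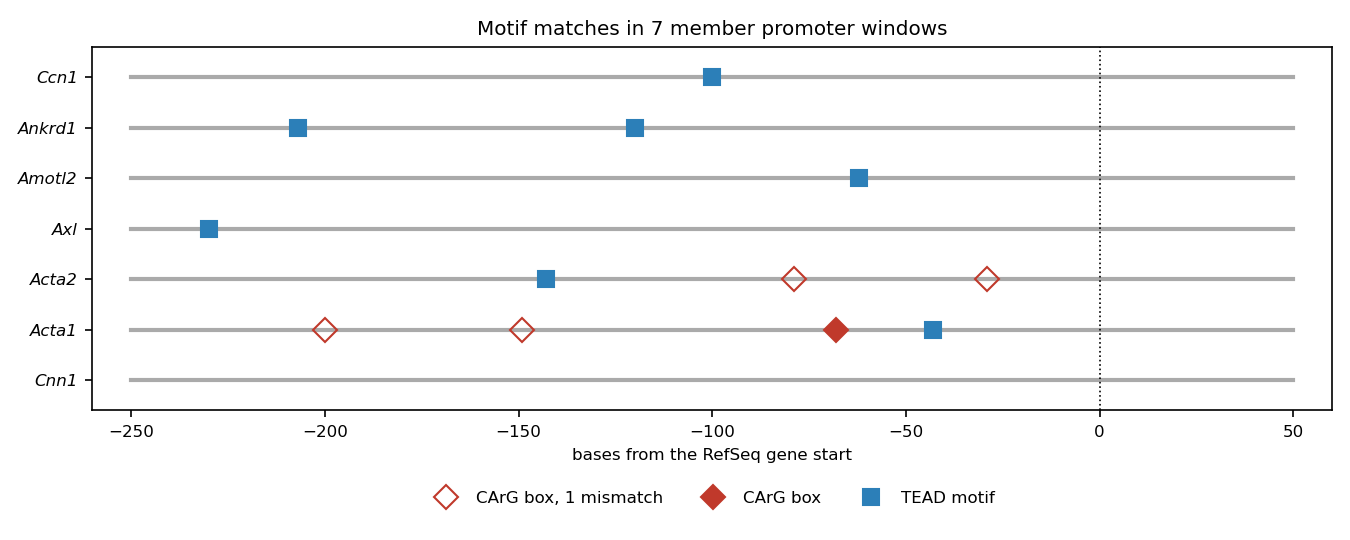
Each grey line is the RefSeq window of 1 member, drawn to scale in bases from the gene start (dotted line). Blue squares are TEAD motifs, filled diamonds CArG boxes and open diamonds CArG boxes with 1 mismatch, and 6 of the 7 windows held a TEAD motif while only Acta1 held a full CArG box.

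In WT cells the YAP targets Ccn2 and Ccn1 had the highest levels per length, at 59.5 ± 28.7 and 57.3 ± 32.1 CPM per kilobase (SD, n = 11 libraries), pooled means that did not differ beyond their spread. Tagln, which encodes the actin-binding protein transgelin, followed at 30.1 ± 20 CPM per kilobase, and Amotl2, which encodes a scaffold protein that binds YAP, at 17.5 ± 4.82. Acta2 (smooth muscle actin, 10.2 ± 7.87) and Thbs1 (the matrix protein thrombospondin-1, 10.1 ± 6.44) had similar pooled means. The order is one of means over batches that differed, and it did not hold in each of them. In batch D Amotl2 (11, 12.5 and 11.5 CPM per kilobase) was above Tagln (7.3, 6.45 and 7.77). Acta2 was above Thbs1 in batches B and E and below it in batches A and C. Ccn1 was above Ccn2 in batch B and below it in batches D and E. Ankrd1, a nuclear and sarcomeric ankyrin repeat protein, was at 5.83 ± 4.55, Acta1 (skeletal muscle actin) at 3.44 ± 2.70, Cnn1 (calponin) at 1.85 ± 1.01 and Axl (a receptor tyrosine kinase) at 1.12 ± 0.661.

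The levels in WT libraries themselves differed between batches. Batch A had the highest WT mean for 8 of the 10 members and batch B for Acta2 and Axl, while batch D had the lowest for all 10. The ratio of the highest to the lowest batch mean ran from 2 for Amotl2 to 11.5 for Acta1. Each line was therefore compared with the WT libraries of its own batch.

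Ccn2, a secreted matricellular protein, was lower in all 6 lines than in any WT library of the batch. In batch A it was at 302 and 293 CPM in WT, 83.9 and 78.6 in Rsf1Δ, and 30.9 and 26.7 in WstfΔ. In batch B it was at 160 and 155 CPM in WT and 56.6 and 56.3 in Tip5Δ. In batch C it was at 99.2 and 105 CPM in WT and 17.9 and 19.5 in BptfΔ. The WT libraries of batch C were thus lower than those of batch A, and BptfΔ was lower than every library of the other lines. In batch D the WT libraries had 92.1, 96.0 and 99.0 CPM and the Cecr2Δ-labelled ones 29.0, 28.9 and 26.5. In batch E the WT libraries had 241 and 230 CPM and Acf1Δ 144 and 145, so that the groups did not overlap but the difference was smaller.

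The log2 fold change of Ccn2 was -1.87 ± 0.0652 (SE) in Rsf1Δ, -3.37 ± 0.0744 in WstfΔ, -1.48 ± 0.0662 in Tip5Δ, -1.77 ± 0.0559 in the Cecr2Δ-labelled libraries and -2.45 ± 0.0771 in BptfΔ. In Acf1Δ it was -0.70 ± 0.0627, which did not pass the call of an absolute log2 fold change over 1 with an adjusted p under 0.01. The lncRNA Gm15270 shares 362 bases with Ccn2 and had at most 21.8 CPM. How reads of overlapping genes were counted is not given in the sources used here, so reads in the shared bases are uncertain.

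Ankrd1 was called lower in 5 lines and was below 1 CPM in 3 of them. It was at 38.2 and 43.7 CPM in WT of batch A, 5.84 and 6.07 in Rsf1Δ, and 0.722 and 0.659 in WstfΔ. In batch D it was at 5.32, 3.94 and 3.97 CPM in WT and 0.213, 0.146 and 0.195 in the Cecr2Δ-labelled libraries, and in batch B it was at 18.4 and 17.6 in WT and 5.60 and 5.41 in Tip5Δ. In BptfΔ both libraries had 0 counts, against 10.4 and 10.7 CPM in WT of batch C, which makes Ankrd1 at least 59.7-fold lower with a floor of 3 counts per library. In Acf1Δ, at 15.6 and 13.3 CPM, the values overlapped those of WT (17.5 and 15.3), and the log2 fold change was -0.19 ± 0.114. The log2 fold changes elsewhere were -2.78 ± 0.124 in Rsf1Δ, -5.88 ± 0.200 in WstfΔ, -1.71 ± 0.131 in Tip5Δ and -4.56 ± 0.222 in the Cecr2Δ-labelled libraries.

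Ccn1, a second secreted matricellular protein, was called lower in 5 lines, with log2 fold changes from -3.24 ± 0.0768 in WstfΔ to -1.01 ± 0.0654 in Tip5Δ. In Tip5Δ the libraries had 74.5 and 79.0 CPM against 156 and 154 in WT. The value in Tip5Δ was just inside the fold-change threshold, as was Amotl2 in the Cecr2Δ-labelled libraries (-1.01 ± 0.0671), while Amotl2 in WstfΔ was just outside it (-0.92 ± 0.0817). Leaving out 1 library ended both calls, that of Ccn1 in Tip5Δ without Tip5Δ replicate 1 (-0.97) and that of Amotl2 without WT replicate 2 of batch D (-0.96) or Cecr2Δ-labelled replicate 3 (-0.95). Ccn1 in Acf1Δ was at 121 and 120 CPM against 133 and 130 in WT.

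Thbs1 was called lower in Rsf1Δ, WstfΔ, BptfΔ and the Cecr2Δ-labelled libraries. The log2 fold change was -5.26 ± 0.204 in BptfΔ, where the libraries had 1.08 and 1.27 CPM against 44.6 and 45.9 in WT. It was -0.83 ± 0.109 in Tip5Δ and -0.66 ± 0.109 in Acf1Δ. Axl was called lower in Rsf1Δ, WstfΔ, Acf1Δ and BptfΔ, from -2.82 ± 0.195 to -1.12 ± 0.257. Its call in BptfΔ ended without BptfΔ replicate 2 (-0.94) or without WT replicate 1 of batch C (-1.02). Amotl2, a YAP target whose product also restrains YAP, was called lower in 1 line, the Cecr2Δ-labelled libraries. In BptfΔ its libraries had 148 and 152 CPM against 95 and 91.3 in WT (0.69 ± 0.0803, not called), so every BptfΔ library was above every WT library of its batch.

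**Figure D2:**
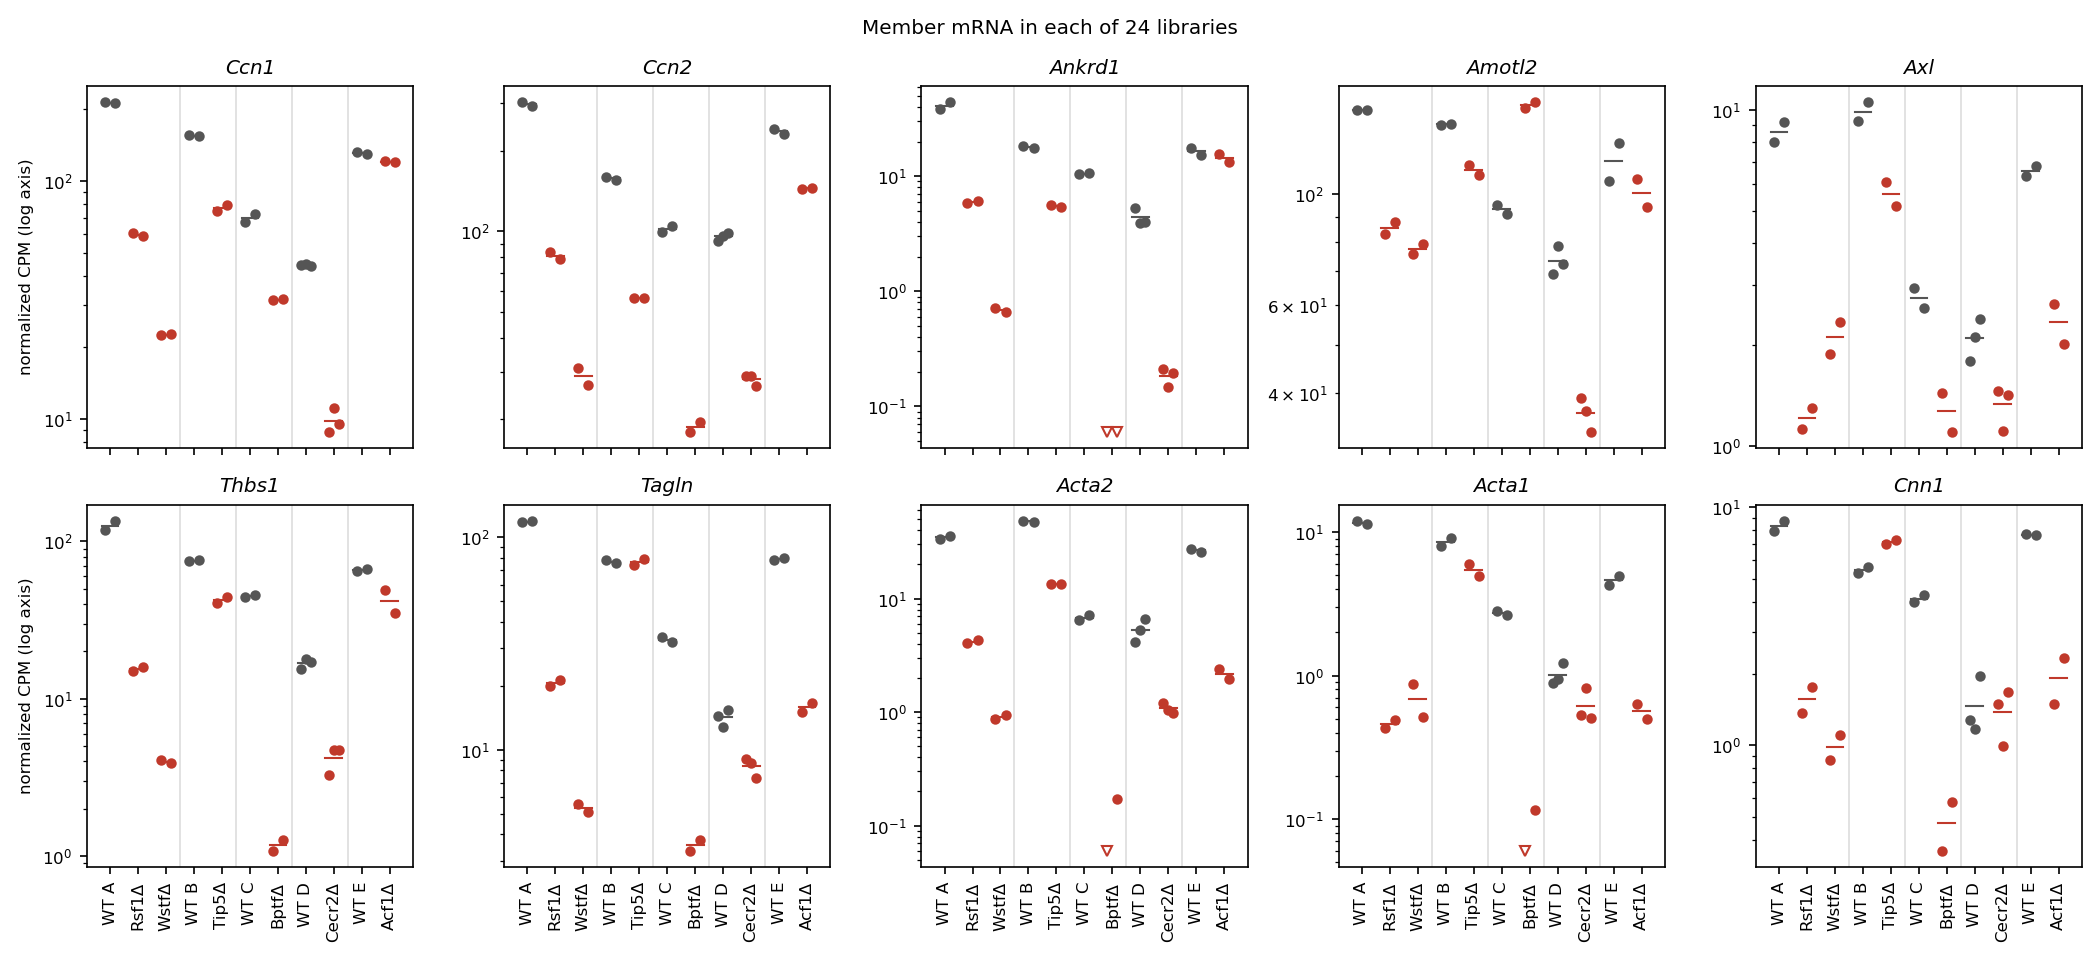
Normalized CPM (log axis) of each member in each of the 24 libraries, with WT in grey and deletion lines in red, batches A, B, C, D and E from left to right separated by thin lines, and short bars for group means. Open triangles mark libraries with 0 counts, drawn at an arbitrary low height, and Ankrd1 had 0 counts in both BptfΔ libraries.

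Tagln was called lower in 4 lines and was at the level of WT in Tip5Δ. It was at 118 and 119 CPM in WT of batch A, 19.9 and 21.3 in Rsf1Δ, and 5.56 and 5.12 in WstfΔ. In batch E it was at 77.9 and 79.6 CPM in WT and 15.1 and 16.6 in Acf1Δ, and in batch C at 33.8 and 32.2 in WT and 3.35 and 3.76 in BptfΔ. In batch B, Tip5Δ (74.0 and 79.0 CPM) overlapped WT (78.3 and 75.6). In batch D the Cecr2Δ-labelled libraries had 9.07, 8.64 and 7.34 CPM and WT 14.5, 12.8 and 15.4. The log2 fold changes were -2.52 ± 0.0834 in Rsf1Δ, -4.47 ± 0.109 in WstfΔ, -2.31 ± 0.0846 in Acf1Δ and -3.21 ± 0.123 in BptfΔ. In Tip5Δ the log2 fold change was -0.01 ± 0.0756, and in the Cecr2Δ-labelled libraries it was -0.78 ± 0.0798. The gene Pcsk7 shares 2480 bases with Tagln and had at most 31.8 CPM, so reads of these genes may not be told apart.

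Acta2 was the 1 member called lower in all 6 lines. It was at 33.7 and 35.5 CPM in WT of batch A, 4.04 and 4.32 in Rsf1Δ, and 0.867 and 0.951 in WstfΔ. In batch B it was at 47.9 and 47.6 CPM in WT and 13.4 and 13.5 in Tip5Δ, and in batch E at 27.6 and 25.7 in WT and 2.39 and 1.94 in Acf1Δ. In batch D it was at 4.13, 5.30 and 6.55 CPM in WT and 1.21, 1.05 and 0.976 in the Cecr2Δ-labelled libraries. Every library of a line was below every WT library of its batch in each of the 6 cases. The log2 fold changes were -3.05 ± 0.143 in Rsf1Δ, -5.24 ± 0.212 in WstfΔ, -1.83 ± 0.121 in Tip5Δ, -2.30 ± 0.166 in the Cecr2Δ-labelled libraries and -3.62 ± 0.157 in Acf1Δ. In BptfΔ 3 counts in all were left against 245 in WT of batch C, a 76.8-fold lower level (95% exact interval 26.0 to 375, counting error only).

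Acta1 was called lower in Rsf1Δ (-4.65 ± 0.243), WstfΔ (-4.07 ± 0.259), Acf1Δ (-3.03 ± 0.250) and BptfΔ, where 2 counts against 99 gave a 46.5-fold lower level (95% exact interval 12.5 to 390). Of the 50-base windows in the transcripts of Acta1, 2% were identical to a window of another actin, and 0.352% of those of Acta2, so sequence shared at this length was rare. Cnn1 was called lower in the same 4 lines, from -3.12 ± 0.343 in BptfΔ to -2 ± 0.204 in Acf1Δ. In Tip5Δ the Cnn1 libraries had 7 and 7.32 CPM against 5.29 and 5.60 in WT (0.40 ± 0.181), and in the Cecr2Δ-labelled libraries the values overlapped those of WT. Leaving out 1 BptfΔ library moved the fitted fold change of Acta2 in BptfΔ to -5.25 or -10.41 and that of Acta1 to -4.51 or -9.11, so these fitted values rest on few counts.

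**Figure D3:**
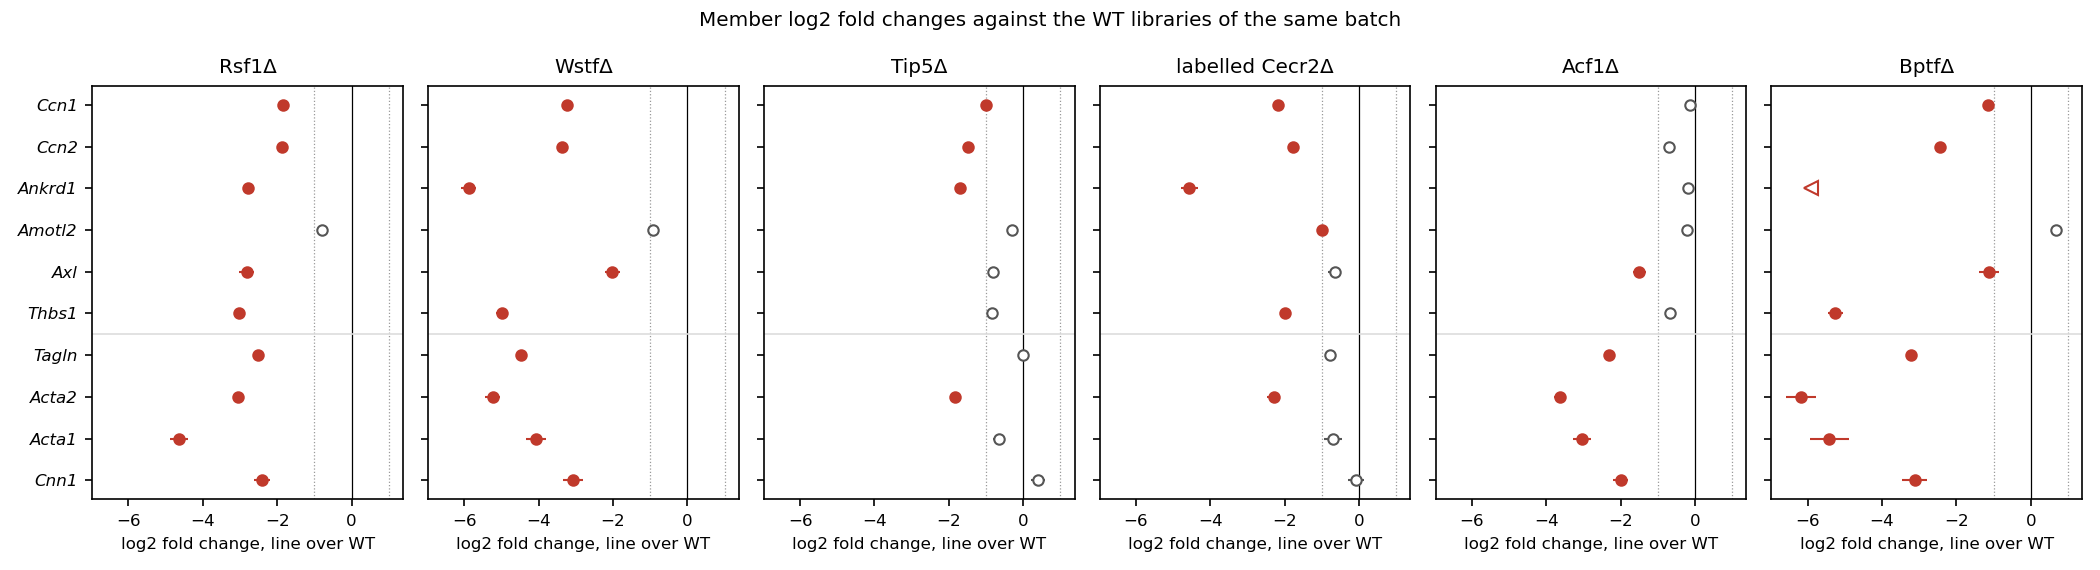
Log2 fold change of each member in each line against the WT libraries of its batch, with bars of 1 SE (often smaller than the point), filled red where called and open grey where not. The open triangle for Ankrd1 in BptfΔ is the bound at 3 counts per library (log2 fold change -5.90) and not a fitted value, and the thin line separates YAP targets (above) from contractile genes (below).

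Both groups of members were called lower in Rsf1Δ, WstfΔ and BptfΔ, and mainly 1 of them in Acf1Δ and in the Cecr2Δ-labelled libraries. In Acf1Δ all 4 contractile genes were called lower but of the YAP targets only Axl, with medians of -2.67 for the contractile genes and -0.44 for the YAP targets. In the Cecr2Δ-labelled libraries 5 of 6 YAP targets were called lower, with a median of -1.88, but of the contractile genes only Acta2, with a median of -0.74. Without a batch term Tagln (-2.84), Acta1 (-3.08) and Axl (-2.08) were called lower there too. That fit left 0 members called in Rsf1Δ, Tip5Δ and Acf1Δ and 6 in WstfΔ, and ended the call of Axl in BptfΔ. In Tip5Δ 3 YAP targets (Ccn1, Ccn2 and Ankrd1) and Acta2 were called lower. In Rsf1Δ, WstfΔ and BptfΔ 5 of 6 YAP targets and all 4 contractile genes were called lower. The difference between the groups of genes was not tested, since the members were chosen with these values known.

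Of the 10 members, 9 were called lower in Rsf1Δ, where 5.26% of all genes tested were called lower and 0.65% higher. In WstfΔ 9 were lower (6.57% of all genes lower, 3.87% higher), in Tip5Δ 4 (2.63% lower, 0.0829% higher), and in the Cecr2Δ-labelled libraries 6 (2.33% lower, 0.784% higher). In Acf1Δ 5 were lower (3.32% lower, 1.14% higher) and in BptfΔ 9 (8.59% lower, 5.25% higher). None was called higher in any line, and nothing is read from these counts because the members were chosen by their values. Each library of a line was below all 11 WT libraries for 3 members in Rsf1Δ (5.75% of all genes), 8 in WstfΔ (11.6%), 1 in Tip5Δ (7.52%), 9 in the Cecr2Δ-labelled libraries (6.29%), 2 in Acf1Δ (6.21%) and 9 in BptfΔ (20.6%). These counts depend on the WT level of the batch, which was lowest in batch D for all 10 members. They therefore do not rank the lines. The median log2 fold change of the members was -2.65 in Rsf1Δ, -3.72 in WstfΔ, -0.82 in Tip5Δ, -1.39 in the Cecr2Δ-labelled libraries, -1.10 in Acf1Δ and -3.16 in BptfΔ, against medians between -0.026 and 0.015 over all genes tested. In bulk RNA, fewer cells of a type and less RNA per cell cannot be told apart.

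Markers of extraembryonic endoderm, a cell type that arises spontaneously in mESC cultures, moved in several of the same lines. Of 8 markers (Gata4, Gata6, Sox17, Dab2, Pdgfra, Sparc, Lama1 and Col4a1), 8 were called lower in Rsf1Δ, 7 in WstfΔ, 8 in Tip5Δ, 7 in the Cecr2Δ-labelled libraries, 7 in BptfΔ and 0 in Acf1Δ. Their summed level was 4700 to 5180 CPM in WT of batch A, 1570 to 1610 in Rsf1Δ and 1410 in both WstfΔ libraries. It was 4820 to 4920 CPM in WT of batch B and 1080 to 1110 in Tip5Δ, and 2480 to 2560 in WT of batch C and 723 to 745 in BptfΔ. In batch D it was 1480 to 1540 CPM in WT and 463 to 480 in the Cecr2Δ-labelled libraries, so that the WT libraries of batch D were the lowest here as well. In Acf1Δ it was 2990 to 3710 CPM, overlapping WT of batch E (3020 to 3380), while all 4 contractile members were lower there. None of the 8 markers had 0 counts throughout a group. The part of these cells in the members' levels was not tested.

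Fibroblast markers were low throughout, at a summed 7.11 to 38.5 CPM over 10 genes. Of the 6 tested, 3 were called lower in Rsf1Δ, WstfΔ, Tip5Δ, Acf1Δ and BptfΔ and 0 in the Cecr2Δ-labelled libraries. These were the collagen genes Col1a1, Col1a2 and Col3a1, but in BptfΔ they were Col1a2, Col3a1 and Thy1. In WstfΔ 1 was called higher, Thy1 (log2 fold change 1.03), so the sum in that line holds moves in both directions. The summed level was 29.5 to 29.6 CPM in WT of batch E and 17.2 to 18 in Acf1Δ, and 12.1 to 12.2 in WT of batch C and 7.11 to 7.78 in BptfΔ. In WstfΔ (22.6 to 27.7 CPM) the sum overlapped that of WT in batch A (24.1 to 25.7), while in Rsf1Δ it was 14.3 to 15.1. It was 22.4 to 28.4 CPM in Tip5Δ against 37.6 to 38.5 in WT, and 19.2 to 19.4 in the Cecr2Δ-labelled libraries against 21.5 to 23.2. Lum and Postn were at 0 counts throughout in several groups, both in BptfΔ and in WT of batch C. Of 7 muscle markers tested, 0 to 2 were called lower in a line and 1 was called higher in the Cecr2Δ-labelled libraries, and the sum of the 9 listed was below every WT library of the batch in 5 of the 6 lines. It was 24.3 to 33.8 CPM in WT of batch A, 20.1 to 21.8 in Rsf1Δ and 12.3 to 15.1 in WstfΔ, and 16.5 to 19.7 in WT of batch B and 14.1 to 14.4 in Tip5Δ. It was 28.3 to 28.9 CPM in WT of batch D and 19.6 to 25.4 in the Cecr2Δ-labelled libraries, and 23.6 to 28.2 in WT of batch E and 17.5 to 20.3 in Acf1Δ. In batch C, at 64.7 to 88.7 CPM in WT and 78.9 to 98.6 in BptfΔ, the groups overlapped. Most of that sum was Ttn, at up to 79.6 CPM in WT. Myh6 (log2 fold change -2.12) and Myh7 (-2.27) were called lower in BptfΔ. Of 4 mesoderm markers tested, 1 was lower in WstfΔ and in Tip5Δ (Kdr in both), and 1 was higher in WstfΔ (Eomes, log2 fold change 1.05), in the Cecr2Δ-labelled libraries (Kdr, 1.03) and in BptfΔ (Kdr, 2.67), and 1 was also lower in BptfΔ (T). The sum of the 5 listed was 15.2 to 17.1 CPM in BptfΔ and 6.25 to 6.59 in WT of batch C. It was also above WT in WstfΔ (9.07 to 9.75 CPM against 6.66 to 7.62). It was below WT in Tip5Δ (5.66 to 6.0 CPM against 7.25 to 7.59) and in Acf1Δ (5.9 to 7.09 against 8.22 to 8.33). In Rsf1Δ and the Cecr2Δ-labelled libraries it overlapped WT. The part of such cells in the members' levels was not tested.

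The genes of the Hippo pathway and of the SRF branch were examined in 6 lists, with the members left out, and 103 of the 107 listed genes passed the filter. Their p-values come from the same fit over all genes (edgeR's quasi-likelihood test, Benjamini-Hochberg adjusted). The lists were chosen with earlier results of these data known, and many genes are named for the size of their change. These p-values are therefore not independent support. Of these, 23 were called lower and 0 higher in Rsf1Δ, 30 and 3 in WstfΔ, 8 and 1 in Tip5Δ, 7 and 0 in the Cecr2Δ-labelled libraries, 10 and 0 in Acf1Δ and 18 and 4 in BptfΔ. Over all genes tested the shares called lower were between 2.33% and 8.59%, and the list genes called lower were above the share in every line. The shares called higher were 3.87% in WstfΔ and 5.25% in BptfΔ, so that the 3 and 4 of 103 genes called higher there were below them. The 1 called higher in Tip5Δ was above the share there (0.0829%). Nothing particular to the lists is read from these counts.

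The regulators themselves were mostly not called. Yap1 had a log2 fold change between -0.05 and 0.24 and was called in no line. The kinase genes Lats1 and Lats2, Nf2, and Wwtr1, which encodes TAZ, were called in no line either, but not all were level. In BptfΔ Wwtr1 was just outside the fold-change threshold, at 71 and 72.9 CPM against 35.6 and 37.2 in WT (log2 fold change 0.98, edgeR adjusted p = 5.18e-11), and Lats2 had a log2 fold change of 0.89 (edgeR adjusted p = 1.6e-06). In Acf1Δ the log2 fold change of Wwtr1 was -0.70 (edgeR adjusted p = 5.44e-08). Of the 25 Hippo components, 4 were lower in Rsf1Δ, 2 in WstfΔ and 1 each in the Cecr2Δ-labelled libraries, in Acf1Δ and in BptfΔ, while 1 was higher in WstfΔ and 1 in BptfΔ. Outside Rsf1Δ these counts are near the shares over all genes given above, and nothing particular to the list is read from them. Vgll3, a TEAD cofactor, was the most frequent of these, as it was lower in 4 lines. In Acf1Δ its libraries had 3.58 and 3.18 CPM against 9.28 and 9.70 in WT (-1.49 ± 0.150, edgeR adjusted p = 1.63e-08). Amot, an angiomotin that binds YAP, was lower in Rsf1Δ (-1.26 ± 0.117, edgeR adjusted p = 2.42e-09). In BptfΔ Amot fell to 2.04 and 1.5 CPM from 33.8 and 35.7 in WT (-4.29 ± 0.189, edgeR adjusted p = 2.16e-16). Its paralogue Amotl1 was lower in Rsf1Δ (-1.19 ± 0.101, edgeR adjusted p = 4.55e-10).

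Of the TEAD factors, Tead4 rose in 2 lines and Tead3 fell in 2. Tead4 was at 63.4 and 59.6 CPM in WstfΔ against 25.7 and 28.9 in WT (1.17 ± 0.107, edgeR adjusted p = 9.62e-10). In BptfΔ it was at 55.0 and 57.6 CPM against 22.4 and 20.9 (1.38 ± 0.112, edgeR adjusted p = 5.80e-11). Tead3 fell in Rsf1Δ (-1.42 ± 0.152, edgeR adjusted p = 3.00e-08) and in WstfΔ (-1.65 ± 0.174, edgeR adjusted p = 1.28e-08). Tead1 and Tead2 were called in no line.

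Some of the other YAP targets were called lower in each line, from 2 genes in Acf1Δ to 7 in WstfΔ. Of 14 tested, 5 were lower in Rsf1Δ, 7 in WstfΔ, 3 in Tip5Δ, 3 in the Cecr2Δ-labelled libraries, 2 in Acf1Δ and 5 in BptfΔ, and the list's median log2 fold change was between -1.21 (WstfΔ) and -0.22 (BptfΔ). Over all genes the shares called lower were 5.26% in Rsf1Δ, 6.57% in WstfΔ, 2.63% in Tip5Δ, 2.33% in the Cecr2Δ-labelled libraries, 3.32% in Acf1Δ and 8.59% in BptfΔ, and nothing particular to the list is read from its counts. F3, which encodes tissue factor, was at 147 and 151 CPM in WT of batch A and 34.3 and 30.1 in Rsf1Δ (-2.21 ± 0.0785, edgeR adjusted p = 7.40e-18). In Tip5Δ it was at 25.4 and 27.7 CPM against 122 and 116 in WT (-2.16 ± 0.0799, edgeR adjusted p = 2.42e-17). Crim1, a transmembrane protein that binds BMPs, was at 14.2 and 16.1 CPM in Tip5Δ against 63.2 and 62.4 in WT (-2.05 ± 0.102, edgeR adjusted p = 1.28e-14). It fell also in the Cecr2Δ-labelled libraries, to 5.37, 4.29 and 4.38 CPM from 20.1, 21.4 and 20.4 (-2.15 ± 0.0986, edgeR adjusted p = 2.03e-15). Ccdc80, a matrix protein, was lower in 5 lines, with 2 counts in WstfΔ against 186 in WT of batch A (53.0-fold lower, 95% exact interval 14.5 to 441). Tgfb2, a TGF-beta ligand, was lower in Acf1Δ, at 1.31 and 1.52 CPM against 4.68 and 4.26 (-1.66 ± 0.215, edgeR adjusted p = 8.79e-07). The list also held genes called higher, 1 in WstfΔ (Nuak2) and 2 in BptfΔ (Nuak2 and Arhgef17, the second at a log2 fold change of 1). Nuak2 encodes a kinase. It rose in WstfΔ from 10.9 and 11.2 CPM to 26.7 and 24.4 (1.21 ± 0.116, edgeR adjusted p = 2.20e-09) and in BptfΔ from 10.2 and 10.7 to 38.7 and 40.5 (1.92 ± 0.114, edgeR adjusted p = 1.18e-13).

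The SRF regulators were not called in any line except Myocd. Srf had log2 fold changes between -0.30 and 0.05, Mrtfa between -0.20 and 0.22 and Mrtfb between -0.33 and 0.13. Of the 18 genes of the SRF pathway, 1 was lower in each of Rsf1Δ, WstfΔ and BptfΔ, and this was Myocd, the muscle cofactor of SRF, named after its values were seen and at no more than 1.2 CPM in WT. These counts are near the shares of all genes called lower in those lines (5.26%, 6.57% and 8.59%), and nothing is read from them. Of 30 other SRF targets, 12 were lower in Rsf1Δ, 12 in WstfΔ, 2 in Tip5Δ, 2 in the Cecr2Δ-labelled libraries, 6 in Acf1Δ and 7 in BptfΔ, with list medians between -0.83 (Rsf1Δ) and -0.09 (Tip5Δ), and these counts too are a description beside the same shares over all genes. The cytoplasmic actins were not called. Actb was between -0.17 and 0.07 and Actg1 between -0.29 and 0.57 in log2 fold change, in the 6 lines.

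Fhl2, a LIM protein of the actin cytoskeleton, fell in the Cecr2Δ-labelled libraries to 0.178, 0.876 and 0.530 CPM from 2.85, 3.48 and 3.01 (-2.49 ± 0.237, edgeR adjusted p = 4.78e-09). In BptfΔ it was at 0.539 and 0.347 CPM against 5.46 and 5.43 in WT (-3.61 ± 0.351, edgeR adjusted p = 2.01e-09). Des, which encodes the muscle intermediate filament desmin, rose in WstfΔ to 58.1 and 58.8 CPM from 28.0 and 25.4 (1.13 ± 0.0845, edgeR adjusted p = 2.06e-11). Cald1, encoding caldesmon, rose in BptfΔ to 121 and 123 CPM from 54.3 and 58.0 (1.12 ± 0.0685, edgeR adjusted p = 1.99e-13), while it was called lower in Rsf1Δ and Acf1Δ. Contractile genes of these lists therefore did not all move in 1 direction in BptfΔ and WstfΔ.

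Of 7 immediate early genes controlled by SRF through its ternary complex cofactors, 3 were lower in WstfΔ, 2 in BptfΔ and 0 in the other lines. Over all genes 6.57% were called lower in WstfΔ and 8.59% in BptfΔ, and nothing particular to the list is read from these counts. Apart from Egr1, the genes called had at most 5 counts in each library of the line. Egr1 was at 0.778 and 0.636 CPM in BptfΔ against 6.88 and 5.95 in WT (-3.18 ± 0.213, edgeR adjusted p = 1.27e-12). Paralogues and partners of the members were tested for 9 of 12 genes. Ccn4, which encodes a relative of Ccn1 and Ccn2, was lower in 5 of the 6 lines. In Tip5Δ its libraries had 1.05 and 0.915 CPM against 2.95 and 4.18 (-1.86 ± 0.343, edgeR adjusted p = 0.000305). In WstfΔ 3 counts remained against 148 (28.1-fold lower, 95% exact interval 9.43 to 138). Thbs4, a relative of Thbs1, had 2 counts in WstfΔ against 64 (18.2-fold lower, 95% exact interval 4.85 to 154), but rose in Tip5Δ from 0.460 and 0.268 CPM to 1.4 and 1.12 (1.78 ± 0.413, edgeR adjusted p = 0.00322).

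**Figure D4:**
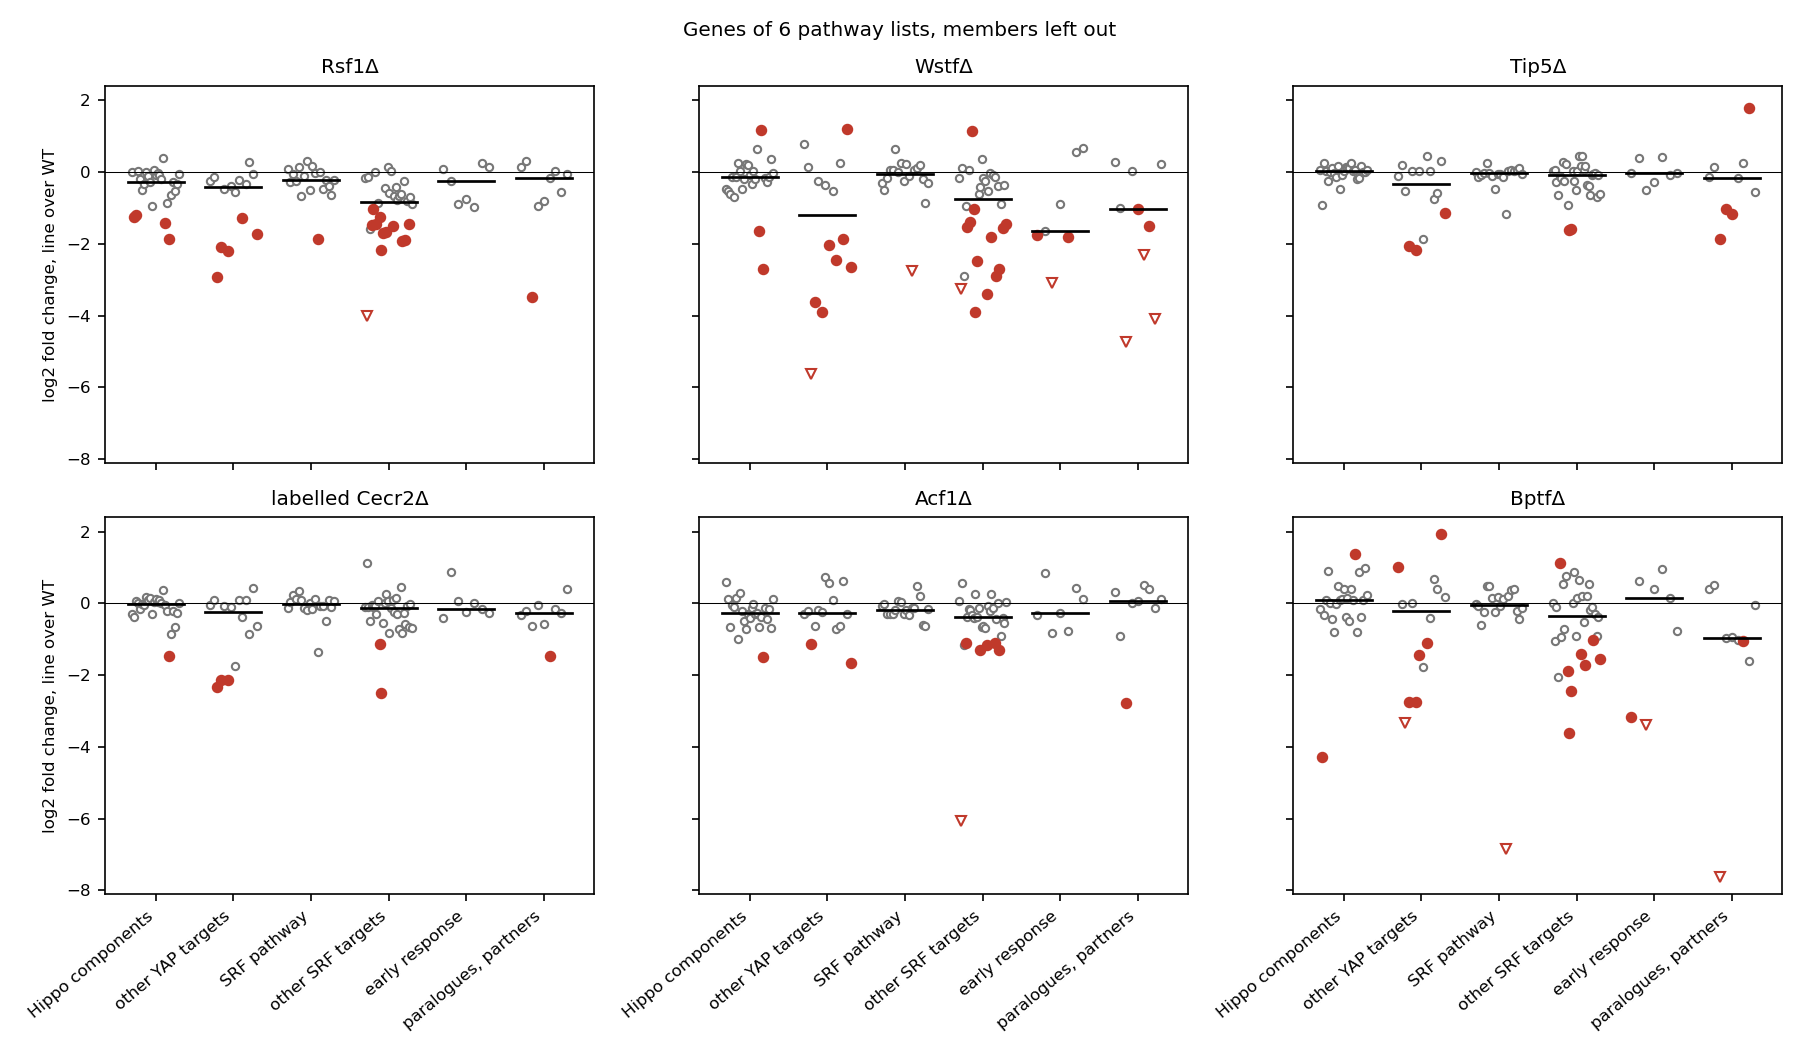
Log2 fold change of every tested gene of the 6 lists, members left out, in each line against the WT libraries of its batch, with red for called, open grey for not called and black bars for list medians. Open red triangles mark called genes with at most 3 counts in each library of the line, whose fitted values are not bounds, and the red points lie mostly below 0 in the lists of YAP and SRF targets.

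Across all 24 libraries, the members' deviations from the WT mean of their own batch (log2 normalized CPM) varied together to different degrees. These libraries share batches, and WT libraries deviate from their own mean, so the values are a description. Over the 6 pairs of contractile genes Pearson's r was between 0.867 and 0.961, with a median of 0.935. Over the 15 pairs of YAP targets it was between 0.237 and 0.976, with a median of 0.719, and over the 24 pairs across the groups between 0.102 and 0.939, with a median of 0.79. The genes most like Ccn2 were Crim1 (0.992), F3 (0.985), App (0.976), Ankrd1 (0.976) and Nrk (0.976). Those most like Tagln were Cdh2 (0.968), Cd109 (0.961), Cnn1 (0.961), Ddr1 (0.961) and Glod5 (0.957).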

How the data were processed

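RNA-seq of mESCs was used, with groups and batches from the labels. Spliced alignment to mm10 was done by the authors with QuasR and HISAT2, and they deposited raw counts per gene, with a gene width in bases. Treatment of strand, overlapping genes and multiple mapping is not given in the sources used here. Gene IDs were joined to RefSeq (GRCm38.p6), which held 24570 of the 24594 IDs.

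R 4.3.3 with edgeR 4.0.16 filtered genes (filterByExpr by genotype), scaled counts with TMM and fitted a quasi-likelihood model (legacy form) with batch and genotype over all 24 libraries, as in the authors' design. P-values were Benjamini-Hochberg adjusted over 15682 genes, and a call needed an adjusted p under 0.01 and a log2 fold change beyond 1 in either direction. In every line more genes were called than the study reported as misregulated at these thresholds, and the reason was not tested. Standard errors were taken as the size of the log2 fold change over the root of F. CPM used TMM-scaled totals, per kilobase of the authors' width where levels of genes were compared. Groups with at most 3 counts per library were given bounds or ratios with exact 95% intervals, which cover counting error only. Likeness used log2(CPM + 0.5).

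The members and lists were chosen with earlier results of these data known. The genes named were the members, 16 regulators and actins, and per line at most the 3 list genes with the largest called increase and the 3 with the largest decrease that lay beyond every WT library of the batch with a mean of at least 10 counts, plus the 5 genes most like Ccn2 and Tagln. Single marker genes, Arhgef17 and Myocd were named after their values were seen. The steps were tested on simulated data. Alternatives were DESeq2 1.42.0, library size in place of TMM, no filter, the newer quasi-likelihood form, each line with only its own WT, no batch term, a replicate block, no fold-change minimum and each library left out. Leaving out batch C or the Cecr2Δ-labelled libraries was chosen after seeing the data.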

Additional observations from a re-analysis of the deposited data

How the results depend on the processing

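The fit without a batch term, which compares each line with WT libraries of all batches, moved most values. It called 1 list gene in Rsf1Δ, 9 in WstfΔ, 0 in Tip5Δ, 16 in the Cecr2Δ-labelled libraries and 1 in Acf1Δ, against 23, 33, 9, 7 and 10, and 0 members in Rsf1Δ, Tip5Δ and Acf1Δ, 6 in WstfΔ and 8 in BptfΔ, but 9 against 6 in the Cecr2Δ-labelled libraries, where Acta1, Axl and Tagln were gained. The cause was not tested. Without the fold-change minimum, list genes called were 53 in Rsf1Δ, 61 in WstfΔ, 25 in Tip5Δ, 32 in the Cecr2Δ-labelled libraries, 46 in Acf1Δ and 57 in BptfΔ, and 8 members in Tip5Δ. Of the 168 alternatives of these counts, 153 stayed within 1.5 times and 15 did not. Of 620 alternatives of the members' fold changes, 503 moved by less than the spread between replicates and 117 by more, and none of the called ones changed sign. Beside the fit without a batch term, 3 member calls near the threshold were lost. Ccn1 in Tip5Δ was lost without a filter on low counts (log2 fold change -1), without batch C (-0.99) and without Tip5Δ replicate 1 (-0.97). Amotl2 in the Cecr2Δ-labelled libraries and Axl in BptfΔ were each lost when either of 2 libraries was left out, which left 5 and 8 members called. Same-numbered libraries correlated between -0.0672 and 0.0453 over 13 pairs. In each line with 2 libraries both pairs gave the same value, so the 13 values are not independent. They therefore cannot decide whether the replicate numbers in the labels pair the libraries. With a replicate block, 22 list genes were called in Rsf1Δ, 32 in WstfΔ, 9 in Tip5Δ, 7 in the Cecr2Δ-labelled libraries, 9 in Acf1Δ and 21 in BptfΔ, and as many members as before. Depth limits the lowest members, since 3 counts equal up to 0.22 CPM.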
